A study of Homo sapiens with 6 samples.

Results

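The genes described here were 7 transcription factors of the gut lineages (CDX1, CDX2, HNF4A, HNF4G, GATA6, FOXA2 and KLF5) and the long noncoding RNA LINC00261, 8 genes in all among the 19775 genes named on the array. Every probe set annotated to one of them was taken, which gave 13 of 54613 probe sets for 7 of the genes. The annotation used here names no probe set for HNF4A, and its level was not analysed here. The set was chosen by its own values in resistant against parental cells, so these values are given as a description and carry no test. A probe set was bright enough to be tested where its mean over the arrays was at least the array median, and 8 of the 13 probe sets passed, for 5 genes: FOXA2, LINC00261, HNF4G, GATA6 and KLF5.

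CDX1 and CDX2 are homeobox factors that set and keep intestinal identity, and HNF4A and HNF4G are nuclear receptors that hold the enterocyte absorptive programme. GATA6 is a zinc finger factor of the endoderm, FOXA2 is a forkhead pioneer factor that can bind closed chromatin in foregut, liver, lung and gut epithelium, and KLF5 is a Krüppel-like factor of proliferating crypt cells. LINC00261 is transcribed from the gene next to FOXA2 and is known from definitive endoderm, where both genes are switched on together.

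Expression was measured in Caco2 cells, an established human colon cancer line, on Affymetrix HG U133 Plus 2.0 arrays, with 3 arrays of cells resistant to methotrexate (MTX, an antifolate) and 3 arrays of the parental cells. The resistant cells tolerated 10 µM MTX and were grown without glycine, hypoxanthine and thymidine in dialyzed serum, whereas the parental cells were sensitive to MTX and were grown in Ham's F12 medium with undialyzed fetal bovine serum. The medium therefore changed with the group, and selection and medium cannot be told apart. Whether the triplicates were separate cultures is not stated in the labels, and a p-value therefore reflects the spread between 3 samples a group that may be technical alone.

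Levels are given below as the signal of a probe set divided by the median signal of its array, so that 1 is the middle probe set of the array. The array medians were 10.6 to 11.5 signal units in resistant cells and 11.1 to 12.8 signal units in parental cells, and the 25th percentile lay at 0.287 to 0.306 times the median. Parental array 3 stood somewhat apart, with correlations of 0.949 and 0.946 across probe sets to the other parental arrays, which correlated at 0.966 with each other, while the resistant arrays correlated at 0.968 to 0.971 among themselves. The epithelial markers EPCAM, CDH1, KRT8, KRT18, KRT19, VIL1, CDH17 and KRT20 were all bright enough to be tested. Of 10 enterocyte markers only 2 were, and SI (sucrase-isomaltase), ALPI (intestinal alkaline phosphatase) and ANPEP (aminopeptidase N) lay below the array median on all 6 arrays. Among markers of other cell types, 3 of 8 fibroblast, 3 of 7 immune and 2 of 6 endothelial genes were bright enough.

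The starts of these genes are shown first, because the set consists of factors that bind DNA and of genes they may act on. RefSeq promoter windows of assembly GRCh38.p14, from 250 bases before to 50 bases after a gene's start, were at hand for CDX2, KLF5, GATA6, LINC00261 and HNF4A, and those of FOXA2, CDX1 and HNF4G were not used here. Both strands were searched for short core motifs of the factor families, TGTTTAC for FOXA, TTTATGG for CDX, AGATAA for GATA, CAAAGTCCA for HNF4, CCACCC for KLF and GTTAAT for HNF1. No motif contains another. The windows printed below run 5′ to 3′ on the strand of the gene, with each match in capitals. The LINC00261 window is chr20:22578593-22578892 on the minus strand, the CDX2 window chr13:27969266-27969565 on the minus strand, and the GATA6 window chr18:22169339-22169638 on the plus strand.
LINC00261: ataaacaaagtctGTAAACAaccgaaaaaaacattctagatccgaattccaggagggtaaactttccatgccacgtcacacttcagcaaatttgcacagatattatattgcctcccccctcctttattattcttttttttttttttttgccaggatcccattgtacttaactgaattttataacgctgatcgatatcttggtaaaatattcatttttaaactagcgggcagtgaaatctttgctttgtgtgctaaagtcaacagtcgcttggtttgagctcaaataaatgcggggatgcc
CDX2: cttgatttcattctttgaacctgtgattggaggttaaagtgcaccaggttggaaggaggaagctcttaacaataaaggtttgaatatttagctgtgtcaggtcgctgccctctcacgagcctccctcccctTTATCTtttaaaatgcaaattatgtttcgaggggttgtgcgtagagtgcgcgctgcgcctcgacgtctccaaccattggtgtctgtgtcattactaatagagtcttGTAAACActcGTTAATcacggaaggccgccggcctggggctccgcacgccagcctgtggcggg
GATA6: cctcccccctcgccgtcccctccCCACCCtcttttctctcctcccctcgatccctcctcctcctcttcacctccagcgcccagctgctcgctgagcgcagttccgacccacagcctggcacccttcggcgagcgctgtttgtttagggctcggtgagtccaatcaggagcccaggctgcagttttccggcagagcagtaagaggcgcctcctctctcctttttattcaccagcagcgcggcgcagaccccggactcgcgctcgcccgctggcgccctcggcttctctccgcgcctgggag
The LINC00261 window held 1 FOXA match, in its reverse form GTAAACA, whose first base lay 237 bases before the start. The CDX2 window held the same FOXA form 13 bases before the start, a GATA match 119 bases before it and an HNF1 match 3 bases before it. The GATA6 window held a KLF match 227 bases before its start. Neither of the 2 KLF5 windows, chr13:73054726-73055025 and chr13:73058755-73059054 on the plus strand, held any of the 6 motifs, and the windows of HNF4A, for which no level is given, are not printed. Over the 35116 promoter windows of the table the share with a match was 3.42% for FOXA, 2.54% for CDX, 10.3% for GATA, 0.384% for HNF4, 34.3% for KLF and 6.88% for HNF1. A match describes the letters of the window and is neither a binding site nor a cause of any level given here.

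FOXA2 was bright in resistant cells and dim in parental cells in both of its tested probe sets. The brighter one, 40284_at, read 6.35, 6.74 and 5.49 times the array median on resistant arrays 1, 2 and 3, against 0.324, 0.805 and 0.513 on parental arrays 1, 2 and 3. All resistant arrays lay above all parental arrays, and the parental signals lay between the 25th percentile of the array and its median. The mean log2 difference, resistant minus parental, was 3.59 ± 0.39 (SE, n = 3 each), a 12.1-fold higher level. In RNA of a whole culture, fewer cells that express a gene and less of its RNA per cell cannot be told apart.

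The other tested FOXA2 probe set, 210103_s_at, read 5.25, 5.07 and 5.51 times the array median on the resistant arrays and 0.108, 0.0625 and 0.0885 on the parental arrays. Here the 3 parental signals were below the 25th percentile of their arrays, where an array measures poorly. The log2 difference of 5.97 ± 0.23 (SE, n = 3 each), or 62.6-fold, depended on how such low signals were treated. With every signal below the array's 25th percentile set to that percentile it was 17.8-fold, and with 0.5 array medians added to every signal 9.85-fold. For 40284_at these values were 12.1-fold and 6.48-fold. Both probe sets read the same gene in the same RNA and are not replicates of each other. Probe sets marked s_at may bind more than 1 transcript.

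The remaining FOXA2 probe set, 214312_at, did not follow these. It was too dim to be tested and read 0.207, 0.142 and 0.8 times the array median in resistant cells and 0.748, 0.672 and 1.35 in parental cells. The groups overlapped, with the higher readings mostly on the parental side. Its log2 difference was -1.62 ± 0.82 (SE, n = 3 each).

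LINC00261 showed the same pattern as its neighbour FOXA2. Its single probe set, 228004_at, read 5.28, 3.1 and 5.25 times the array median on the resistant arrays and 0.0991, 0.0937 and 0.115 on the parental arrays. The resistant arrays were all above the median and the parental arrays all below the 25th percentile. The log2 difference was 5.43 ± 0.27 (SE, n = 3 each), or 43.2-fold, and 39.5-fold to 51.5-fold with single arrays left out. With low signals raised to the 25th percentile it was 14.9-fold, and with the offset of 0.5 array medians 8.18-fold. The tested FOXA2 probe sets and that of LINC00261 passed the brightness limit only through the resistant arrays, so that they had to differ between the groups to be tested.

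HNF4G, the paralogue of HNF4A in the gut, was measured above the array median in both groups and was higher in resistant cells in both of its probe sets. Probe set 232271_at read 11.8, 12.1 and 17.8 times the array median in resistant cells and 7.41, 10.4 and 5.99 in parental cells. The lowest resistant array stood just above the highest parental array, and the log2 difference was 0.82 ± 0.30 (SE, n = 3 each), or 1.76-fold. Probe set 207456_at read 4.96, 4.7 and 5.54 in resistant cells and 2.12, 3.16 and 1.58 in parental cells. These groups also lay apart, with a log2 difference of 1.21 ± 0.30 (SE, n = 3 each), or 2.31-fold. This value moved across the 2-fold limit with the arrays used, at 1.96-fold when parental array 3 was left out and 2.77-fold when parental array 2 was.

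GATA6 was also present in both groups. Its bright probe set, 210002_at, read 35.8, 29.5 and 35.5 times the array median in resistant cells and 20.4, 22.0 and 15.8 in parental cells, so that the groups lay apart. The log2 difference was 0.80 ± 0.17 (SE, n = 3 each), or 1.74-fold, between 1.58-fold and 1.86-fold with single arrays left out. The second GATA6 probe set, 229282_at, was too dim to be tested, at 0.423, 0.679 and 0.226 in resistant cells and 0.45, 0.234 and 1.35 in parental cells. It had no clear order, with overlapping groups and a log2 difference of -0.38 ± 0.87 (SE, n = 3 each) that turned positive, at 0.31, without parental array 3.

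KLF5 was bright on every array. Probe set 209212_s_at read 63.5, 62.4 and 66.8 times the array median in resistant cells and 71.8, 77.2 and 52.5 in parental cells. The resistant arrays fell inside the parental range, and the log2 difference of -0.05 ± 0.17 (SE, n = 3 each) ranged from -0.21 to 0.06 over the alternatives. Probe set 209211_at read 47.0, 33.9 and 45.8 in resistant cells and 62.2, 108 and 49.7 in parental cells. Here the groups did not overlap, with parental array 2 far above the rest. Its log2 difference was -0.73 ± 0.37 (SE, n = 3 each), -0.41 without parental array 2 and -0.97 without parental array 3, so that the 2 KLF5 probe sets differed in how far apart they set the groups.

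CDX1 and CDX2, the factors that name the intestine most directly, were not measured above the array median in either group as a whole. The CDX1 probe set 206430_at read 0.0901, 0.434 and 1.17 times the array median in resistant cells and 0.306, 0.68 and 0.416 in parental cells. The resistant readings spanned the whole parental range, and the log2 difference of -0.31 ± 1.13 (SE, n = 3 each) turned to 0.69 without resistant array 1. The CDX2 probe set 206387_at read 1.14, 0.113 and 0.2 in resistant cells and 0.144, 0.234 and 0.0885 in parental cells. Apart from resistant array 1 these readings lay below the 25th percentile of each array, and the log2 difference of 1.03 ± 1.08 (SE, n = 3 each) shrank to 0.06 without that array. The other CDX2 probe set, 231606_at, read 0.0631, 0.0472 and 0.0609 in resistant cells and 0.108, 0.406 and 0.0885 in parental cells. The groups did not overlap, but 5 of the 6 readings were below the 25th percentile, and the log2 difference of -1.47 ± 0.70 (SE, n = 3 each) became -0.17 once low signals were raised to the 25th percentile. A difference in CDX1 or CDX2 was not detectable at these signals, which does not show that the genes were silent.

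**Figure D1:**
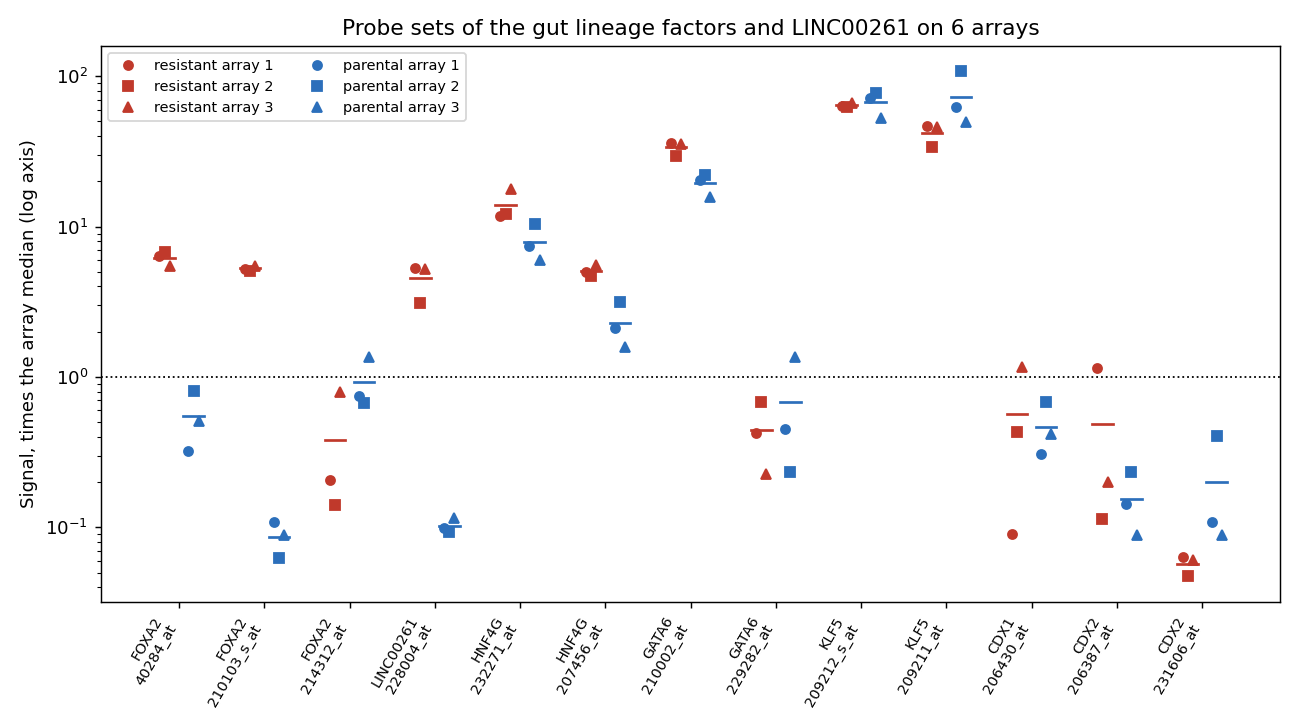
Signal of the 13 probe sets in times the array median (log axis), with resistant arrays in red to the left and parental arrays in blue to the right of each probe set. Points are single arrays, short lines are group means and the dotted line is the array median. FOXA2 40284_at and 210103_s_at and LINC00261 lie above the median only in resistant cells, HNF4G, GATA6 210002_at and KLF5 above it in both groups, and CDX1 and CDX2 mostly below it.

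Across all 26563 tested probe sets, limma called 735 higher in resistant cells, or 2.77%, and 505 lower, or 1.90%, where a call needed both an adjusted p under 0.05 and a 2-fold difference. Taken by gene, with the brightest probe set of each of 11849 genes, 399 were higher (3.37%) and 257 lower (2.17%). By the same rule 4 of the 8 tested probe sets of the set counted as higher (both of FOXA2, LINC00261 and 207456_at of HNF4G) and 0 as lower, a count that the choice of the set decided beforehand. The groups did not overlap in 7 of the 8, with 6 above and 1 below, where 32.1% of all tested probe sets had groups that did not overlap in either direction.

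The genes whose profile over the 6 arrays was most like each factor were found by the mean absolute difference of log2 levels, each centred over the arrays, among 11848 other genes. For FOXA2 they were ANXA13, an intestinal annexin, at 0.238, LUM, a matrix proteoglycan, at 0.274 and HES6, a bHLH factor, at 0.276 log2 units. The level of HES6 averaged 31.0 times the array median in resistant cells and 2.57 in parental cells, and that of ANXA13 averaged 19.7 in resistant and 2.43 in parental cells. Nearest to LINC00261 were AGR3, at 0.255, CEMIP, at 0.385, and TFF3, a trefoil peptide of goblet cells, at 0.528. AGR3, a secretory pathway protein, averaged 52.1 times the array median in resistant cells and 1.08 in parental cells.

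Nearest to HNF4G were PELI2, GCNT3, a mucin glycosyltransferase, and TRIB1, at 0.085, 0.116 and 0.121 log2 units. Nearest to GATA6 were MYADM and SLC28A3, a nucleoside transporter, both at 0.067, and KIRREL1, at 0.078. The profile of KLF5 209212_s_at was nearly flat, and its nearest genes ZNF791, WDR26 and MYLIP, at 0.021, 0.022 and 0.026, had log2 differences of -0.07, -0.02 and -0.03. Likeness here is a description over 6 arrays in 2 groups, and a gene that differs by a like amount between the groups is close by construction. CDX1 and CDX2 were below the brightness limit and were not compared.

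The genes next to each factor were then examined, 5 on each side with a tested probe set, to ask whether the neighbourhood moved with it. No other tested gene around FOXA2 and LINC00261 was called. Of the 9 tested neighbours of FOXA2, limma called 0, with 3 at an unadjusted p below 0.05 and 0 by the methods' t-test. The nearest tested gene before the pair was XRN2, an exoribonuclease, where any gene too dim to be tested was passed over. XRN2 had 27.1, 26.7 and 28.1 times the array median in resistant cells and 29.8, 30.0 and 26.8 in parental cells. These readings overlapped, with a log2 difference of -0.08 ± 0.13 (SE, n = 3 each). On the other side NXT1, an mRNA export cofactor, differed by 0.29 ± 0.14.

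The log2 differences of the other neighbours were 0.27 for NAA20, 0.31 for RALGAPA2, -0.89 for KIZ, 0.09 for GZF1, 0.26 for NAPB, 0.56 for CST3 (cystatin C) and 0.75 for CST4. The value of CST4 had an SE of 1.02 with overlapping groups, and its reading on parental array 1 was only 0.0991 times the array median. KIZ, a centrosome protein, and CST3 had adjusted p-values of 0.0271 and 0.0164 in limma but were short of 2-fold. RIN2, counted only among the neighbours of LINC00261, differed by 0.82 with an adjusted p of 0.0506. The median over the FOXA2 neighbours was 0.27, beside 0.02 over all genes.

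Around CDX2 on chromosome 13 the neighbours were lower in resistant cells although CDX2 itself could not be read. Of its 10 tested neighbours, 7 fell by the limma criteria and 0 rose, beside 2.17% of all genes lower, and all 10 had a log2 difference below 0 with a median of -1.17. GTF3A, the transcription factor of 5S ribosomal RNA genes, read 141, 158 and 149 times the array median in resistant cells and 296, 322 and 374 in parental cells. The groups lay well apart, with a log2 difference of -1.14 ± 0.11 (SE, n = 3 each) and a limma adjusted p of 0.000295. POLR1D, a subunit of RNA polymerases I and III, read 80.4, 86.2 and 83.9 in resistant cells and 189, 227 and 163 in parental cells. It was 2.29-fold lower in resistant cells, with a limma adjusted p of 0.0006.

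PAN3, a subunit of the poly(A) nuclease, read 25.3, 23.9 and 27.1 in resistant cells and 64.8, 82.0 and 60.1 in parental cells. It fell by 1.43 ± 0.15 on the log2 scale (SE, n = 3 each), with a limma adjusted p of 0.000417. LNX2, an E3 ubiquitin ligase, fell by 1.52, USP12, a deubiquitinase, by 1.30 and MTIF3, a mitochondrial translation initiation factor, by 1.04, with limma adjusted p-values of 0.000436, 0.000789 and 0.00418. PAN3-AS1, the antisense RNA of PAN3, fell by 1.79 with an adjusted p of 0.0165, and passed the brightness limit only through the parental arrays. POMP, a proteasome assembly factor, differed by -0.66 with an adjusted p of 0.00131, short of 2-fold, while FLT1 and SLC46A3 both differed by -0.10 with overlapping groups. GTF3A, LNX2, USP12 and PAN3 kept their call in all 15 alternatives, POLR1D lost it only with the methods' t-test, and MTIF3 and PAN3-AS1 lost it in 3 each. MTIF3 was 1.86-fold lower without parental array 3.

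**Figure D2:**
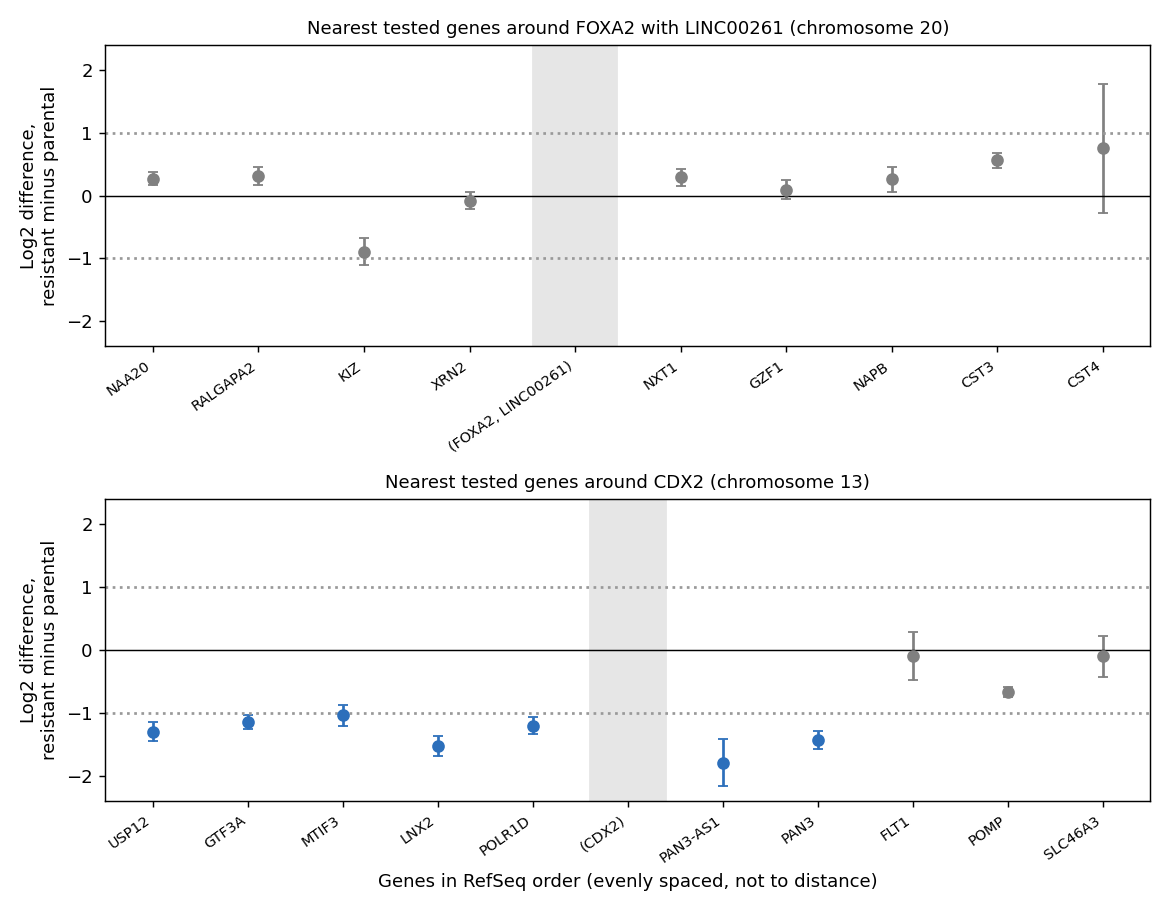
Log2 difference, resistant minus parental (points, with limma's SE bars, n = 3 each), of the nearest tested genes in gene order, evenly spaced. The upper panel shows genes around FOXA2 with LINC00261 and the lower panel genes around CDX2. Blue marks genes called lower, grey genes not called, and the dotted lines mark a 2-fold change. The upper panel holds no called gene, and the lower panel holds 7 lower genes on both sides of CDX2.

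The other neighbourhoods held single called genes or none. Among all 70 neighbouring genes 2 rose and 9 fell by the limma criteria, beside 3.37% of all genes higher and 2.17% lower. Of the 9 that fell, 7 were the neighbours of CDX2 given above. The median log2 difference was -0.07, beside 0.02 over all genes. Near HNF4G, JPH1 (junctophilin 1) read 26.4, 27.9 and 26.2 times the array median in resistant cells and 9.83, 8.3 and 8.45 in parental cells. These groups were far apart, with a 3.04-fold higher level and a limma adjusted p of 0.000189, and 9 of the 10 neighbours of HNF4G had a difference above 0. Near KLF5, on chromosome 13 like CDX2, the noncoding RNA LINC00348 was 6.21-fold lower in resistant cells (limma adjusted p = 0.017). Its call was lost in 2 of 14 alternatives. Of the 10 neighbours of KLF5, 9 were below 0, with a median of -0.45. At an unadjusted limma p below 0.05 there were 0 higher and 8 lower, and the methods' t-test called 0. MZT1 and UCHL3 had limma adjusted p-values of 0.0183 and 0.0201 but were short of 2-fold. LINC00348 passed the brightness limit only through the parental arrays, and with the offset of 0.5 array medians it was 3.28-fold lower.

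Near GATA6, RIOK3 (RIO kinase 3) was 2.08-fold lower with an adjusted p of 0.0399, 1.74-fold without parental array 2 and 2.72-fold without parental array 3, a call lost in 8 of 15 alternatives. GATA6-AS1, which is transcribed opposite GATA6, differed by 0.20 ± 0.33 with an adjusted p of 0.732 and overlapping groups. Near CDX1, SLC26A2, a sulfate transporter, was 2.02-fold higher with an adjusted p of 0.0463, a call lost in 12 of 14 alternatives. Limma called 0 of the 10 neighbours of HNF4A, with 2 at an unadjusted p below 0.05 and 0 by the methods' t-test.

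Other factors of the gut lineages were compared to see whether the set stood among like genes. Of 40 factors listed, 35 had a probe set and 23 were tested. Limma called 3 higher and 0 lower, with a median log2 difference of -0.04, beside 0.02 over all genes and 3.37% of genes higher. At an unadjusted p below 0.05 there were 7 higher and 5 lower, and the methods' t-test called 0. The 3 that rose were ATOH1, ONECUT2 and NR5A2.

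ATOH1, the bHLH factor of secretory cells, read 2.87, 2.87 and 3.56 times the array median in resistant cells and 0.631, 0.883 and 1.02 in parental cells. The lowest resistant array was well above the highest parental one, a 3.73-fold higher level with a limma adjusted p of 0.00553. ATOH1 passed the brightness limit only through the resistant arrays and was 2.69-fold higher with the offset of 0.5 array medians. ONECUT2, a cut-homeobox factor of endoderm, read 22.5, 20.7 and 17.9 in resistant cells and 9.52, 8.15 and 9.28 in parental cells. It was 2.26-fold higher with a limma adjusted p of 0.00184. NR5A2, a nuclear receptor of crypt, liver and pancreas, was 2.31-fold higher with a limma adjusted p of 0.0288, a call lost in 9 of 14 alternatives.

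FOXA1 and FOXA3, the nearest relatives of FOXA2, were present in both groups and were not called. FOXA1 read 4.36, 4.9 and 4.68 times the array median in resistant cells and 4.95, 5.53 and 6.99 in parental cells. The resistant arrays were all slightly lower, with a log2 difference of -0.31 ± 0.19 (SE, n = 3 each) and a limma adjusted p of 0.313. FOXA3 read 8.24, 8.75 and 8.22 in resistant cells and 6.62, 5.66 and 2.67 in parental cells, with a log2 difference of 0.85 ± 0.30 and an adjusted p of 0.0984. The differences between FOXA2 and its relatives were not tested.

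Textbook target genes of each family were examined last, 64 in all, of which 63 had a probe set and 35 were tested. Limma called 9 higher and 1 lower, with a median log2 difference of 0.57 beside 0.02 over all genes, and 3.37% of genes higher and 2.17% lower. Many of these genes are read by more than 1 of the factors, and a target list says which genes a factor can act on, not that it did so here. Whether any factor moved these genes was not tested. TTR, HEPH, MUC2 and REG4 passed the brightness limit only through the resistant arrays, and TAT only through the parental arrays. Such genes had to differ between the groups to be tested, and they enter the medians of the lists.

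Of the FOXA targets 9 of 16 were tested, 4 were higher and 0 lower, with a median of 1.5. At an unadjusted p below 0.05 there were 6 higher and 0 lower, and the methods' t-test called 1. AGR2, a protein disulfide isomerase of mucus-secreting cells, read 212, 184 and 195 times the array median in resistant cells and 31.7, 53.4 and 45.4 in parental cells. The groups were far apart, with a 4.62-fold higher level and a limma adjusted p of 9.6e-05. CFTR, the chloride channel, read 25.9, 22.9 and 22.3 in resistant cells and 4.56, 5.76 and 6.3 in parental cells. It was 4.31-fold higher with a limma adjusted p of 9.87e-05.

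TTR (transthyretin) is read by FOXA and HNF4 factors. It had 2.49, 2.11 and 3.3 times the array median in resistant cells and 0.225, 0.203 and 0.779 in parental cells. The parental arrays were all below the median, so that TTR passed the brightness limit through the resistant arrays, and the 7.86-fold higher level (limma adjusted p = 0.0138) was 3.57-fold with the offset of 0.5 array medians and 12.1-fold without parental array 3. The call was lost without any single resistant array, with a highest adjusted p of 0.124 over the alternatives. TFF1, a trefoil peptide of gastric mucus, read 7.79, 7.39 and 7.55 in resistant cells and 1.98, 1.7 and 5.65 in parental cells. Parental array 3 stood much closer to the resistant arrays than the other parental arrays did, and the 2.83-fold higher level (limma adjusted p = 0.0362) was 4.12-fold without that array and 2.26-fold without parental array 2. Its call was lost in 8 of 15 alternatives.

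Of the HNF4 targets only 4 of 17 were bright enough, 2 were higher, TTR and AGT, and 0 lower, with a median of 1.12. At an unadjusted p below 0.05 there were 3 higher and 0 lower, and the methods' t-test called 0. AGT (angiotensinogen) read 4.14, 3.71 and 4.25 times the array median in resistant cells and 1.87, 1.23 and 1.11 in parental cells. It was 2.94-fold higher with a limma adjusted p of 0.00623. APOB (apolipoprotein B) and MTTP (microsomal triglyceride transfer protein), standard HNF4 targets of enterocytes, were below the brightness limit. APOB read 0.108, 0.575 and 0.148 in resistant cells and 1.08, 0.461 and 0.726 in parental cells.

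Of the CDX targets 9 of 16 were tested, 3 were higher and 0 lower, with a median of 0.89. At an unadjusted p below 0.05 there were 6 higher and 0 lower, and the methods' t-test called 1. CLDN2, a pore-forming claudin, read 38.1, 36.8 and 45.1 times the array median in resistant cells and 4.91, 4.11 and 6.3 in parental cells. The groups did not come near each other, with a 7.93-fold higher level and a limma adjusted p of 1.76e-05, and the call was kept in all 15 alternatives. HEPH (hephaestin, a ferroxidase of iron export) read 5.0, 5.26 and 6.57 in resistant cells and 0.685, 1.17 and 1.05 in parental cells, 5.89-fold higher with a limma adjusted p of 0.000571. It passed the brightness limit only through the resistant arrays and was 4.18-fold higher with the offset of 0.5 array medians.

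KRT20, a keratin of differentiated colon cells, read 361, 387 and 404 in resistant cells and 83.8, 133 and 193 in parental cells. It was 2.97-fold higher with a limma adjusted p of 0.0037. SI, LCT (lactase), GUCY2C, MEP1A, ISX, CA1 and SLC26A3, further CDX targets, were below the brightness limit. SI read 0.216, 0.0849 and 0.0609 in resistant cells and 0.00901, 0.0391 and 0.239 in parental cells, below the 25th percentile of every array.

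Of the GATA targets 7 of 12 were tested, 2 were higher and 1 lower, with a median of 1.08. At an unadjusted p below 0.05 there were 5 higher and 1 lower, and the methods' t-test called 0. TFF1 and DAB2, an endocytic adaptor, were those that limma called higher. DAB2 was 2.11-fold higher (adjusted p = 0.0483), read by a probe set of the x_at type, which has probes in common with unrelated transcripts, and its call was lost in 11 of 14 alternatives. TFF2, a gastric trefoil peptide, read 1.86, 1.41 and 1.8 times the array median in resistant cells and 7.23, 5.59 and 12.2 in parental cells. It moved the other way from TFF1, 4.72-fold lower in resistant cells with a limma adjusted p of 0.00154. The largest difference in the list that was not called was that of REG4, a secretory lectin, at 3.00 ± 0.94 on the log2 scale (adjusted p = 0.0711). REG4 read 2.44, 3.08 and 4.17 in resistant cells and 0.514, 0.0703 and 1.71 in parental cells, with parental array 2 below its 25th percentile. It passed the brightness limit only through the resistant arrays.

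All 10 KLF5 targets were tested, and limma called 0, with a median of 0.06. At an unadjusted p below 0.05 there were 1 higher and 3 lower, and the methods' t-test called 0. The 2 largest differences were those of FGFBP1, a growth factor carrier, at 1.02 ± 0.52 on the log2 scale (SE, n = 3 each; limma adjusted p = 0.238), and PTGES, a prostaglandin synthase, at -0.94 ± 0.28 (adjusted p = 0.0623). EGFR, the receptor of epidermal growth factor, read 8.7, 8.74 and 8.32 times the array median in resistant cells and 14.0, 16.4 and 18.3 in parental cells. The resistant arrays were all lower, but the log2 difference of -0.91 ± 0.16 (SE, n = 3 each; limma adjusted p = 0.0067) was short of 2-fold.

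**Figure D3:**
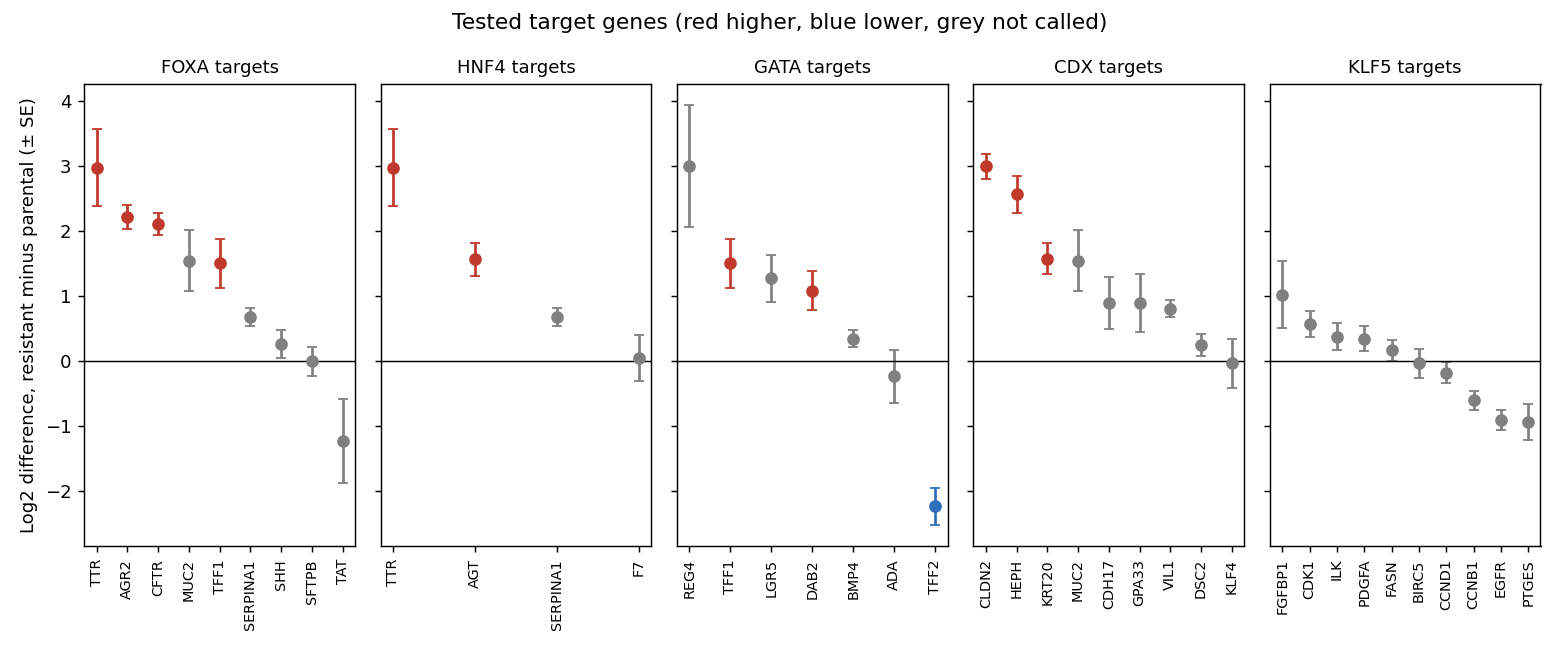
Log2 difference, resistant minus parental, of the tested target genes in the FOXA, HNF4, GATA, CDX and KLF5 lists. Points have limma's SE bars (n = 3 each), and a gene may stand in more than 1 list. Red marks genes called higher, blue lower and grey not called. TTR, AGR2, CFTR, CLDN2 and HEPH stand highest among the called genes, TFF2 is the only one called lower, and the KLF5 targets scatter about 0.

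The summed levels of the fibroblast and goblet cell markers differed between the groups, mainly through few genes. The summed level of 8 fibroblast markers was 9.01 to 9.84 array medians in resistant cells and 6.32 to 7.22 in parental cells, with LUM the only member that rose (9.20-fold, limma adjusted p = 0.00717), a call lost in 3 of 14 alternatives. LUM read 3.27, 2.92 and 1.5 times the array median in resistant cells and 0.198, 0.352 and 0.265 in parental cells. It passed the brightness limit only through the resistant arrays, with 2 of 3 parental readings below the 25th percentile. With the offset of 0.5 array medians it was 3.85-fold higher. COL1A1 and THY1 overlapped between the groups, and COL1A2, COL3A1, DCN, PDGFRB and POSTN were below the brightness limit. The summed level of 8 goblet cell markers was 239 to 267 in resistant cells and 43.1 to 63.9 in parental cells. AGR2, which is also in the FOXA list, made up most of it. It read 212, 184 and 195 in resistant cells and 31.7, 53.4 and 45.4 in parental cells. TFF3 came next in resistant cells, at 33.9, 36.2 and 51.1. The part of other cell types or states in the levels of FOXA2 and LINC00261 was not tested.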

How the data were processed

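RNA of resistant and parental Caco2 cells was hybridised to 6 Affymetrix HG U133 Plus 2.0 arrays. The authors deposited 1 linear signal intensity per probe set and array, and the submitters' processing notes name MAS5, with no version. The deposited table holds no detection calls. After 62 control probe sets were left out, intensities were divided by the array median, exact zeros were set to 0.05 signal units, and values were log2 transformed. Testing was limited to the 26563 probe sets (48.6%) whose mean over all arrays reached 1 array median. Columns of other samples numbered 0, and 0 pairs of arrays were identical.

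Symbols came from the platform annotation, updated through Entrez identifiers to RefSeq (GRCh38.p14). Of the probe sets 41091 had 1 symbol, 1801 several and 11721 were not listed, and 41037 with 1 symbol matched RefSeq. A gene was represented by its brightest tested probe set.

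Groups were compared with limma 3.58.1 in R 4.3.3 (lmFit, eBayes with its trend option), and two-sided p-values were adjusted over all tested probe sets by Benjamini-Hochberg. A call needed an adjusted p below 0.05 and at least a 2-fold change. The smallest exact permutation p for 3 against 3 arrays is 0.1, so none was used. The fit was tested on simulated data. The members, lists and tests were chosen with earlier results of these data known. Named were all members, all neighbours of FOXA2, LINC00261 and CDX2, called neighbours of the rest, called genes of each list (at most 4 per direction, or the largest changes where fewer than 2 were called), and 3 genes of like profile per member. SI, LCT, GUCY2C, MEP1A, ISX, CA1, SLC26A3, APOB, MTTP, ALPI, ANPEP, FOXA1, FOXA3, GATA6-AS1, REG4, EGFR and the markers named only as present, dim or not called were added once their values were known.

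The settings varied were the scaling (quantile normalization, or none beyond the deposited values), the filter (none, or 3 array medians), low signals (raised to the 25th percentile, or an offset of 0.5 array medians), the eBayes trend (none), a replicate block, single arrays left out, the methods' t-test, no fold threshold, a ratio of linear means, and for lists the mean of the probe sets of a gene. The methods' t-test was an equal-variance t-test on the log2 values of the tested probe sets, with Benjamini-Hochberg adjustment and the 2-fold limit. The study made its own calls in GeneSpring after a control strength filter, which was not rerun here. Counts from the t-test are therefore not the study's counts. The array number limits the precision.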

Additional observations from a re-analysis of the deposited data

How the results depend on the processing

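The 735 higher and 505 lower probe sets became 127 and 61 with the methods' t-test, 1528 and 1135 with no fold threshold, and 399 to 1242 and 309 to 998 with single arrays left out, both highest without parental array 3. Higher neighbouring genes fell to 1, against 2, with quantile normalization, no further scaling, no filter, the filter at 3 array medians, the offset, no intensity trend and the methods' t-test, and ranged from 1 to 3 with single arrays left out. Lower neighbouring genes were 4 with the methods' t-test, against 9. Higher gut factors were 1 with the filter at 3 array medians, 0 with the methods' t-test and 5 with no fold threshold, against 3, and 2 to 3 with single arrays left out. Higher target genes were 2 with the methods' t-test, against 9, and 6 to 11 with single arrays left out. Lower target genes were 2 with no further scaling, 0 with the methods' t-test, 3 with no fold threshold and 2 with the mean of the probe sets of a gene, against 1, and 1 to 2 with single arrays left out. The methods' t-test does not share the spread between probe sets, and the fold threshold sets its own count. The cause of the other shifts was not tested. For the called genes of the lists and neighbourhoods, 369 values over the settings kept call and direction, 84 lost the call and 0 changed sign. For the probe sets of the described factors and LINC00261, 149 values stayed within the replicate spread and 7 (FOXA2, LINC00261 and CDX2 231606_at, with low signals raised or offset) moved beyond it, while 8 changed sign, all of CDX1, GATA6 229282_at and KLF5 209212_s_at. The 149 include the replicate block value of each probe set, which equals the main value by construction. TFF1 lost its call with no filter, no intensity trend, the methods' t-test and without any array but parental array 3, where it was 4.12-fold higher (2.26-fold without parental array 2). LUM lost its call without resistant array 1 or 2 and with the methods' t-test.

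Same-numbered arrays did not deviate together (r = -0.018, -0.022 and -0.016 across probe sets), and 0 arrays correlated best with their own number. Over all pairs across the groups r ran from -0.022 to 0.014. A pairing by number was therefore not detectable, which does not show that the samples were handled separately. With the replicate block 721 probe sets were higher and 484 lower. Readings below the 25th percentile bound what can be said of CDX1, CDX2 and of FOXA2 and LINC00261 in parental cells.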

Other observations

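Marker lists of secretory and gastric surface cells held called genes that the target lists above do not. Of 8 goblet cell markers 6 were tested, and limma called 3 higher and 0 lower, with 5 higher and 0 lower at an unadjusted p below 0.05 and 0 by the methods' t-test. They were AGR2, TFF3 (29.9-fold, limma adjusted p = 9.99e-05) and FCGBP, beside 3.37% of all genes higher, while MUC2, SPDEF and SPINK4 were not called. FCGBP, a mucus protein, read 2.9, 4.41 and 4.33 times the array median in resistant cells and 0.595, 0.594 and 0.204 in parental cells, 9.17-fold higher with a limma adjusted p of 0.00359 and 4.57-fold with the offset of 0.5 array medians. Of 8 gastric markers 5 were tested, and limma called 3 higher (ANXA10, MUC5AC and TFF1) and 1 lower (TFF2). At an unadjusted p below 0.05 there were 3 higher and 2 lower, and the methods' t-test called 0. CTSE differed by -0.55 on the log2 scale and was not called, and MUC6, GKN1 and CLDN18 were below the brightness limit.

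ANXA10, a gastric annexin, read 90.2, 94.6 and 91.5 in resistant cells and 1.58, 6.3 and 11.6 in parental cells. The parental arrays were far apart from each other, and the 18.9-fold higher level (limma adjusted p = 0.00173) was 10.8-fold without parental array 1 and 29.2-fold without parental array 3. MUC5AC, the gastric surface mucin, read 3.41, 4.1 and 3.23 in resistant cells and 0.802, 0.141 and 0.531 in parental cells. It was 9.11-fold higher with a limma adjusted p of 0.0103, a call lost without any single resistant array and with the methods' t-test. With the offset of 0.5 array medians it was 4.28-fold higher. The log2 difference was 3.71 without parental array 1 and 2.45 without parental array 2, against 3.19 with all arrays. FCGBP and MUC5AC passed the brightness limit only through the resistant arrays.

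DPP4, a brush border peptidase, was 1 of only 2 enterocyte markers bright enough to be tested. It read 21.7, 21.9 and 22.6 in resistant cells and 6.31, 6.41 and 6.92 in parental cells, 3.37-fold higher with a limma adjusted p of 9.76e-05, and its call was kept in all 15 alternatives. The other, SLC5A1, differed by 0.43 on the log2 scale. Of the 4 crypt stem cell markers tested, SMOC2 was called lower and LGR5, RNF43 and ASCL2, with log2 differences of 1.27, 0.32 and 0.23, were not called, for a median of 0.27. SMOC2 read 0.369, 0.0755 and 0.478 in resistant cells and 6.2, 3.27 and 1.24 in parental cells. It was 12.3-fold lower in resistant cells (limma adjusted p = 0.0239), 4.48-fold with the offset of 0.5 array medians and 19.0-fold without parental array 3, and its log2 difference was -2.80 without resistant array 2, against -3.63 with all arrays. SMOC2 passed the brightness limit only through the parental arrays and lost its call in 6 of 14 alternatives.

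In the remaining marker lists the largest log2 differences beside the called genes were 0.89 for CDH17 (epithelial), 0.68 for SERPINA1 (hepatocyte) and 0.18 for THY1 (fibroblast), none of them called. The groups overlapped in CDH17. They lay apart in VIL1, KRT8 and KRT18, at 0.80, 0.68 and 0.41, with limma adjusted p-values of 0.00504, 0.0298 and 0.0394 but short of 2-fold. SERPINA1 was also short of 2-fold (limma adjusted p = 0.0165). Of the epithelial markers 6 were higher and 0 lower at an unadjusted limma p below 0.05, and the methods' t-test called 0. Limma called 0 immune markers, with 0 higher and 1 lower at an unadjusted p below 0.05 and 0 by the methods' t-test, and the largest differences were -0.91 for LAPTM5 and 0.84 for CD79A. It called 0 endothelial markers, with 1 higher and 0 lower at an unadjusted p below 0.05 and 0 by the methods' t-test, with 0.72 for ENG and -0.19 for PECAM1.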
